A study of Homo sapiens with 6 samples.

Results

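Melanocytes and the melanomas that arise from them are held in their identity by a small network of transcription factors, and 10 of its genes are described here among the 18417 genes measured: MITF, SOX10, SOX9, PAX3, TFAP2A, TFAP2B, ZEB1, ZEB2, SNAI2 and TWIST1. They were chosen by gene symbol, with the brightest of a gene's single-symbol probe sets used for its value, and all 10 were measured. The cells were WM164, a BRAF mutant melanoma line. Colonies that the labels call IDTC and describe as resistant had been kept in PLX4032 (vemurafenib, which blocks mutant BRAF) at 500 nM for 60 days. Parent cells of the same line served as controls; their labels read untreated, while the series title says that they received DMSO. Each group was kept in triplicate with RNA isolated from each sample, and each of the 6 samples was hybridised to its own 1-colour Affymetrix whole-transcript array. Both groups come from 1 cell line and share its BRAF mutation, the labels do not say whether a colony is a clone, and in bulk RNA fewer cells that express a gene and less RNA per cell cannot be told apart.

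MITF is the master regulator of pigment cells and drives both pigment enzymes and survival genes. SOX10 and PAX3, factors of the neural crest from which melanocytes derive, switch MITF on together with CREB and LEF1 at the promoter of its melanocyte transcript, and TFAP2A shares many of MITF's binding sites. Melanoma cells are known to move between a differentiated state with high MITF and SOX10 and a dedifferentiated or mesenchymal-like state, and exchanges of ZEB2 and SNAI2 for ZEB1 and TWIST1, and of SOX10 for SOX9, are associated with that move.

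In the colonies 6 of the 10 factors were higher than in parent cells and none was lower (limma, adjusted p under 0.05, and likewise 6 and 0 at an unadjusted p under 0.05). TFAP2A rose 4.20-fold, SNAI2 2.47-fold, PAX3 1.94-fold, ZEB2 1.55-fold, SOX10 1.33-fold and TWIST1 1.28-fold, while MITF, ZEB1, SOX9 and TFAP2B did not pass the test. Over all genes 20.9% were called higher and 22.9% lower, or 43.8% in either direction. Calls were more common among genes above the median expression, where 68.0% passed, 31.2% higher and 36.8% lower. Of the 8 factors in that brighter range 6 were higher. The rises include 2 of at least 2-fold, TFAP2A and SNAI2, a size reached upward by 2.65% and downward by 2.76% of all genes. The 6 factors also had all colony arrays above all parent arrays, as did 24.4% of all genes, while 50.8% of genes had groups that did not overlap in one direction or the other. The median difference was 0.38 on the log2 scale for the 10 factors and 0.00 for all genes.

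The promoters of MITF, TFAP2A and ZEB2 are shown because the results turn on these genes: MITF for the binding letters of factors that moved around it, TFAP2A for the largest rise of the 10, and ZEB2 as the riser whose window holds letters of both MITF and SOX type. Sequences are from RefSeq (GRCh38.p14), each covering 250 bases before to 50 bases after a listed gene start, written 5′ to 3′ on the gene's strand, with motif matches in capitals. MITF has 3 listed starts, and the one shown is nearest the 3′ end of the gene, the side on which the melanocyte-type transcript is known to begin.
MITF, chr3:69936342-69936641, plus strand: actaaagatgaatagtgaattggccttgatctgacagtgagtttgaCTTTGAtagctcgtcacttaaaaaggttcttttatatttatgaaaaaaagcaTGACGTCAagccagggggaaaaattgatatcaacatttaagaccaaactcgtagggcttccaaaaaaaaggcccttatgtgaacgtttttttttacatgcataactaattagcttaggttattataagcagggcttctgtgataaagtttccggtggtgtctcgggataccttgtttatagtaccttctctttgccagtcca
TFAP2A, chr6:10412342-10412641, minus strand: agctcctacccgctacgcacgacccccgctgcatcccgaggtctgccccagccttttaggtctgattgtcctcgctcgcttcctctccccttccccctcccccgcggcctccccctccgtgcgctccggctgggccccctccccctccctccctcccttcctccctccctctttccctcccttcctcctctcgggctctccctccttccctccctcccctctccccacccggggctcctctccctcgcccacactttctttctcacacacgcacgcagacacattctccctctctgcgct
ZEB2, chr2:144520070-144520369, minus strand: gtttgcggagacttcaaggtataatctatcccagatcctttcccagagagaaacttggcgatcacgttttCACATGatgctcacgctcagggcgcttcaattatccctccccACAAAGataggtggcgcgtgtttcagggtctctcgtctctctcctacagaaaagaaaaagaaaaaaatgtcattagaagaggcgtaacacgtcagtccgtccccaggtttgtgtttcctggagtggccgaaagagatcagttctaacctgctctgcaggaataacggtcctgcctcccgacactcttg

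The letters searched on both strands were CATGTG and CACGTG (MITF type), CACCTG (ZEB, SNAI and TWIST type), ACAAAG (SOX type), GCCNNNGGC (AP-2 type), TGACGTCA (CREB type) and CTTTGA (LEF type). No 2 of these spellings match the same full stretch, although neighbouring matches may share bases. The MITF window held CTTTGA beginning 204 bases before the start and TGACGTCA beginning 152 bases before it, and another MITF window held the reverse of ACAAAG. Of 35116 RefSeq windows of this length, 12.9% held CTTTGA and 1.85% held TGACGTCA. The ZEB2 window held CACATG, the reverse of CATGTG (in 11.1% of all windows), and ACAAAG (in 16.1%). Neither window of TFAP2A nor the single window of PAX3 held any of the 7 spellings. Of the 7 windows of ZEB1, 2 held CACCTG (in 20.6% of all windows), 1 held GCCNNNGGC (in 23.2%) and 1 held CATGTG. The window of TFAP2B held CATGTG, and none of the windows of these genes held CACGTG, which 7.26% of all windows held. Windows were not listed for SOX10, SOX9, SNAI2 and TWIST1. A match describes letters and was not tested as a binding site.

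MITF (probe set 8080938) did not pass the test, and its group means were both 11.14. Its log2 expression value was 11.14, 11.20 and 11.07 on the colony arrays and 11.14, 11.14 and 11.13 on the parent arrays. The groups overlapped, with the highest and the lowest of the 6 values both in colonies. The difference was 0.00 ± 0.05 (log2, colony minus parent, SE, n = 3 arrays per group) with limma adjusted p = 0.986, and its 95% interval of -0.11 to 0.11 spans 0.93-fold to 1.08-fold. The table gave 1 probe set for MITF, and its isoforms were not analysed here.

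SOX10 (probe set 8075992), which activates MITF and keeps the neural crest programme running, was at 11.21, 11.18 and 11.03 in colonies and at 10.78, 10.67 and 10.73 in parent cells. The third colony was the lowest of its group and still lay above the highest parent array. The rise of 0.42 ± 0.06 was small but several times the SD of 0.09 in colonies and 0.06 in parent cells (adjusted p = 9.2e-04).

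PAX3 (probe set 8059301), a paired-box factor that acts with SOX10 on MITF and maintains melanoblasts, was at 9.19 on each colony array and at 8.37, 8.14 and 8.21 on the parent arrays. The 3 colony values are identical as deposited, a property shared by 471 genes, so the SD of 0.00 is not a measure of biological spread. PAX3 rose by 0.95 ± 0.06 (adjusted p = 1.6e-05), with a gap of 0.82 between the lowest colony and the highest parent value.

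**Figure D1:**
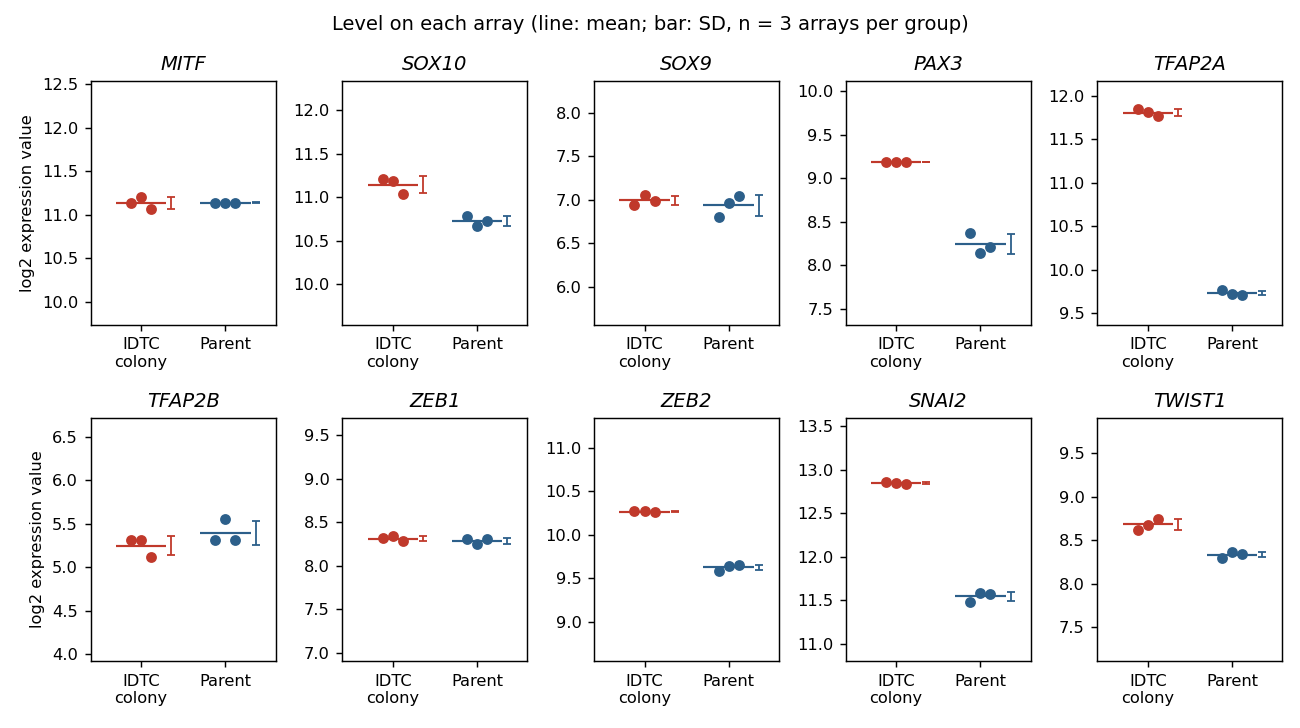
Log2 expression value of each factor on each array, with IDTC colonies left of Parent in every panel; points are arrays, lines are means and bars are SD (n = 3 arrays per group), and each panel spans the same length of the log2 axis. TFAP2A (11.80 in colonies, 9.73 in parent cells) and SNAI2 (12.85 and 11.55) show the widest gaps, while the groups overlap for MITF, SOX9, ZEB1 and TFAP2B.

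TFAP2A (probe set 8123864) encodes AP-2 alpha, which opens chromatin at melanocyte genes alongside MITF, and it had the largest difference of the 10. It was at 11.84, 11.81 and 11.76 in colonies and at 9.76, 9.72 and 9.71 in parent cells, a gap of 2.00 between the nearest arrays of the groups. The rise of 2.07 ± 0.04 (adjusted p = 1.3e-07) ranked 69 among the 18417 differences ordered from the highest. TFAP2A-AS1, a gene that overlaps TFAP2A on the opposite strand, rose by 1.76 ± 0.07, and whether the signals of the overlapping pair are separate was not tested.

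TFAP2B (probe set 8120194), the related AP-2 beta, was at 5.31, 5.31 and 5.12 in colonies and 5.31, 5.55 and 5.31 in parent cells. The groups overlapped, with 1 parent array the highest and 1 colony array the lowest. Its difference of -0.15 ± 0.09 did not pass the test (adjusted p = 0.233). Within the AP-2 family TFAP2A was the 1 gene of 5 that rose, TFAP2C fell by 0.88 on the log2 scale to 7.75 ± 0.12 in colonies, against 8.63 ± 0.06 in parent cells (SD), and TFAP2D (0.00) and TFAP2E (0.06) did not pass.

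SNAI2 (probe set 8150698) encodes SLUG, a repressor of epithelial genes that melanocyte precursors need for migration and survival. It was at 12.86, 12.85 and 12.84 in colonies and at 11.48, 11.58 and 11.57 in parent cells. Each colony array exceeded each parent array by at least 1.26, and the difference was 1.31 ± 0.05 (adjusted p = 7.5e-07).

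ZEB2 (probe set 8055624), the ZEB factor of normal melanocytes, was at 10.27, 10.27 and 10.26 in colonies and at 9.59, 9.64 and 9.65 in parent cells. The difference of 0.64 ± 0.04 (adjusted p = 1.4e-05) was far wider than the spread within either group. A second and dim ZEB2 probe set (8055639) was at 4.78 ± 0.22 in colonies and 4.67 ± 0.25 in parent cells (SD), a difference of 0.11 ± 0.16 that did not pass (adjusted p = 0.687 over all probe sets). ZEB1 (probe set 7926916), the ZEB factor tied to the mesenchymal-like state, was at 8.32, 8.34 and 8.28 in colonies and 8.31, 8.25 and 8.31 in parent cells. Its difference of 0.02 ± 0.04 (adjusted p = 0.737) had an interval of -0.08 to 0.13, or 0.95-fold to 1.09-fold.

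TWIST1 (probe set 8138442), a basic helix-loop-helix factor of mesenchyme, was at 8.62, 8.68 and 8.75 in colonies and at 8.30, 8.36 and 8.34 in parent cells. All colony arrays lay above all parent arrays, and the difference was 0.35 ± 0.05 (adjusted p = 6.8e-04). SOX9 (probe set 8009517), a SOXE factor of cartilage and glia, was at 6.94, 7.05 and 6.98 in colonies and at 6.80, 6.96 and 7.04 in parent cells. These values overlap, and the difference of 0.06 ± 0.07 did not pass (adjusted p = 0.592, interval -0.11 to 0.22).

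The change of 3 pairs of factors relative to each other was read within arrays, since levels of different probe sets are not comparable. The size of a shift can differ between probe sets too: the 2 of ZEB2 gave 0.64 and 0.11. SOX9 also lay below the median expression, so the shifts are a description. SOX9 minus SOX10 was -4.15 ± 0.11 in colonies and -3.79 ± 0.16 in parent cells (SD, n = 3), a shift of -0.36 toward SOX10. ZEB1 minus ZEB2 was -1.95 ± 0.03 in colonies and -1.34 ± 0.05 in parent cells, a shift of -0.61 toward ZEB2. MITF minus SOX10 was 0.00 ± 0.06 in colonies and 0.41 ± 0.06 in parent cells, a shift of -0.41. Colony and parent arrays did not overlap in any of the 3 pairs. The exact 2-sided permutation test gave p = 0.1 for each, also adjusted over the 3 pairs, which is the smallest p that 3 arrays against 3 allow. With the mean of both ZEB2 probe sets the ZEB1 minus ZEB2 shift was -0.35.

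**Figure D2:**
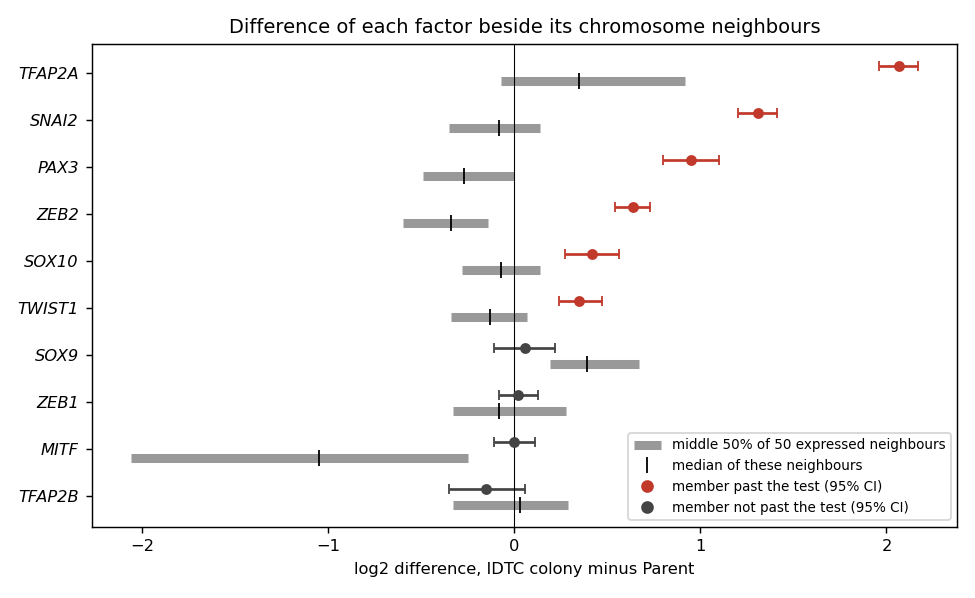
Log2 difference, IDTC colony minus Parent, of each factor with its 95% interval (points), above a grey bar for the middle 50% of its 50 nearest expressed genes on the chromosome and a tick for their median. TFAP2A, at 2.07, stands above a neighbour median of 0.35, and MITF, at 0.00, above a neighbour median of -1.05.

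The differences of the factors were set beside those of genes next to them in chromosome order, as a description. The nearest 50 genes above the median expression, 25 on each side, had medians from -1.05 for MITF to 0.39 for SOX9. Among all genes above the median expression 31.2% were higher and 36.8% lower, the shares beside which counts out of 50 stand. For counts out of the 10 nearest measured genes, the shares over all genes are 20.9% higher and 22.9% lower. No count was tested against these shares. MITF lies in a stretch of chromosome 3 where 39 of these 50 genes were lower and 6 higher in colonies. Of the 10 measured genes next to MITF, 9 fell. They include FRMD4B (-1.17 ± 0.05) on one side and the forkhead factor gene FOXP1 (-1.01 ± 0.06) on the other, together with TMF1 (-1.91), UBA3 (-1.70), ARL6IP5 (-1.01), LMOD3 (-0.24), EIF4E3 (-2.36), PROK2 (-0.31) and RYBP (-1.85). GPR27 (-0.01) did not pass. With the neighbour median subtracted, MITF would differ by 1.05 (limma adjusted p = 3.1e-06). The median was taken off the colony values as a constant, so this value follows by construction. Its p-value leaves out the spread of the neighbours.

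The 10 measured genes next to TFAP2A were mostly higher: 8 rose and none fell, with the same counts at an unadjusted p under 0.05. The 8 include the overlapping TFAP2A-AS1 (1.76), whose signal may not be separate from that of TFAP2A. BMP6, a bone morphogenetic protein gene, was at 9.20 in colonies and 6.73 in parent cells (2.47 ± 0.06). SNRNP48 (1.46), C6orf52 (1.21), SLC35B3 (0.94), PAK1IP1 (0.62), LINC00518 (0.49) and GCNT2 (0.37) rose as well, while OFCC1 (0.16) and PIP5K1P1 (-0.03) did not pass. The wider set was more mixed: of the 50 expressed neighbours of TFAP2A, 28 rose and 9 fell. TFAP2A exceeded 48 of these 50.

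ZEB2 and PAX3, both on chromosome 2, rose while most of the 50 expressed genes around each fell. Of the 50 expressed genes around ZEB2, 36 fell and 6 rose (median -0.34), and ZEB2 exceeded 49 of them. Its nearest falling genes were QTMAN (-0.35), ACVR2A (-0.68), ORC4 (-0.30), MBD5 (-0.25) and EPC2 (-0.41). Around PAX3 30 fell and 6 rose (median -0.27). The 10 measured genes nearest PAX3 showed less of this: 3 fell, 0 rose and 7 did not pass. SOX9 sat among rising genes on chromosome 17, 39 of 50 higher, with ABCA5 (1.34), MAP2K6 (1.85), COG1 (0.74), MTNAP1 (0.62), VCF1 (0.40) and KCNJ2 (0.37) higher and SLC39A11 (-0.50) lower among the 10 nearest. With the neighbour median subtracted, an alternative added after seeing the data for genes below the median expression, SOX9 would differ by -0.34 (limma adjusted p = 0.00511). That value too follows by construction from taking off a constant of 0.39. Its p-value leaves out the spread of the neighbours, whose middle 50% ran from 0.19 to 0.67. The neighbour medians were -0.07 for SOX10, -0.08 for SNAI2, -0.08 for ZEB1, -0.13 for TWIST1 and 0.03 for TFAP2B.

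**Figure D3:**
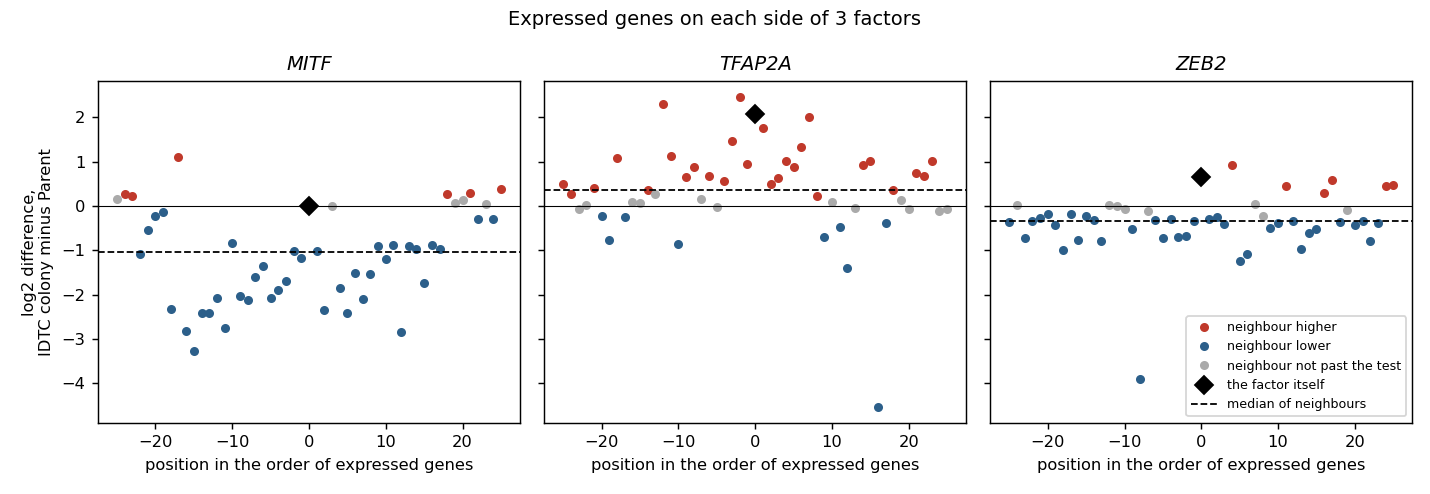
Log2 difference, IDTC colony minus Parent, of the 25 expressed genes on each side of MITF, TFAP2A and ZEB2 against their position in the order of expressed genes; the diamond is the factor and the dashed line the median of its neighbours. MITF lies at 0.00 in a run of lower genes with a median of -1.05, and ZEB2 at 0.64 among genes with a median of -0.34.

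Relatives of the factors were read against the 43.8% of all genes that passed in either direction. In the MITF-TFE family, whose TFEB and TFE3 drive lysosome genes, TFEB rose by 0.21 ± 0.05 (adjusted p = 0.0145), and TFE3 (-0.04) and TFEC (0.12) did not pass. Of the 17 other SOX genes, 3 were higher and 3 lower in colonies. The stem cell factor SOX2 was at 6.88 ± 0.12 in colonies and 5.72 ± 0.12 in parent cells (1.16 ± 0.08, adjusted p = 2.2e-05), and SOX4 (0.47) and SOX18 (0.21) rose too. The SOXD group fell as a whole, SOX5 by 0.42, SOX6 by 0.69 and SOX13 by 0.69 on the log2 scale. SOX8, the third SOXE gene, had a difference of 0.20 ± 0.07 that did not pass (adjusted p = 0.0672).

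Of 8 further PAX genes PAX9 alone passed the test, falling to 6.99 ± 0.07 in colonies, against 7.86 ± 0.02 in parent cells (-0.87 ± 0.05, adjusted p = 8.1e-06), and PAX7, the closest relative of PAX3, was at 0.10 ± 0.08. SNAI1 rose by 0.20 ± 0.05 (adjusted p = 0.0146), and SNAI3 (0.20 ± 0.13) and TWIST2 (0.05 ± 0.07) did not pass. No E protein or ID gene rose, also at an unadjusted p under 0.05, and 4 of 7 fell (5 unadjusted). ID proteins sequester the E proteins that TWIST1 pairs with. ID1 fell to 7.03 ± 0.06 in colonies, against 8.20 ± 0.03 in parent cells, and ID3 to 6.21 ± 0.22, against 7.52 ± 0.00, and the E protein genes TCF3 (-0.24) and TCF4 (-0.33) fell as well.

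Factors that act on the MITF promoter moved in both directions. Besides SOX10 and PAX3, 6 of 11 listed regulators rose, 3 fell and 2 did not pass. For this list and the target and state lists below, the reference is the 43.8% of all genes that passed. Among genes above the median expression 68.0% passed, 31.2% higher and 36.8% lower. No list was tested against these shares. LEF1, the partner of beta-catenin whose binding letters CTTTGA stand in the printed MITF window, was at 9.85 ± 0.05 in colonies and 11.42 ± 0.04 in parent cells (-1.57 ± 0.05, adjusted p = 4.7e-07). CTNNB1, the gene of beta-catenin itself, rose by 0.30 ± 0.04. CREB1, the cyclic AMP factor that binds TGACGTCA, rose by 0.25 ± 0.05 and ATF4, a stress factor that represses MITF, by 0.50 ± 0.06. NFATC2, a calcium-regulated factor, rose by 0.77 ± 0.05, and GLI2 (0.22) and the neural crest factor FOXD3 (0.29) rose also. HIF1A (-0.59) and SOX5 (-0.42), both described as restraining MITF, fell, and the repressors POU3F2 (-0.13) and BHLHE40 (-0.22) did not pass. The list was not sorted into activators and repressors, and no direction is stated here for the risers NFATC2, GLI2 and FOXD3. How repressors of MITF moved as a set therefore cannot be read from it.

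Listed targets of MITF moved in both directions, as did genes above the median expression at large (31.2% higher and 36.8% lower). Of 12 measured pigment targets 4 rose, 6 fell and 2 did not pass, with a list median of -0.17. The 6 that fell include 2 dim genes, TYRP1 (-0.23) and OCA2 (-0.22). Their means lay at or below 5.99, the 95th percentile of the means of olfactory receptor genes. MLANA, a melanosome antigen, fell to 9.50 ± 0.03 in colonies, against 10.94 ± 0.03 in parent cells, and the melanocortin receptor MC1R (-1.32) and the melanosome transport gene RAB27A (-1.17) fell. TRPM1, an ion channel gene, was at 6.96 ± 0.05 in colonies and 5.33 ± 0.15 in parent cells, and GPR143 (0.90) and GPNMB (0.65) rose. Tyrosinase (TYR, -0.12 ± 0.06) and SLC45A2 (-0.01 ± 0.06) did not pass. Of 12 other targets 7 rose and 5 fell, with a median of 0.20. The survival gene BCL2A1 fell to 5.28 ± 0.12 in colonies, against 8.10 ± 0.06 in parent cells, and the apoptosis inhibitor gene BIRC7 (-1.26) fell, whereas CEACAM1 (1.31), the T-box factor TBX2 (1.01) and PPARGC1A (0.65), a driver of mitochondrial genes, rose.

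**Figure D4:**
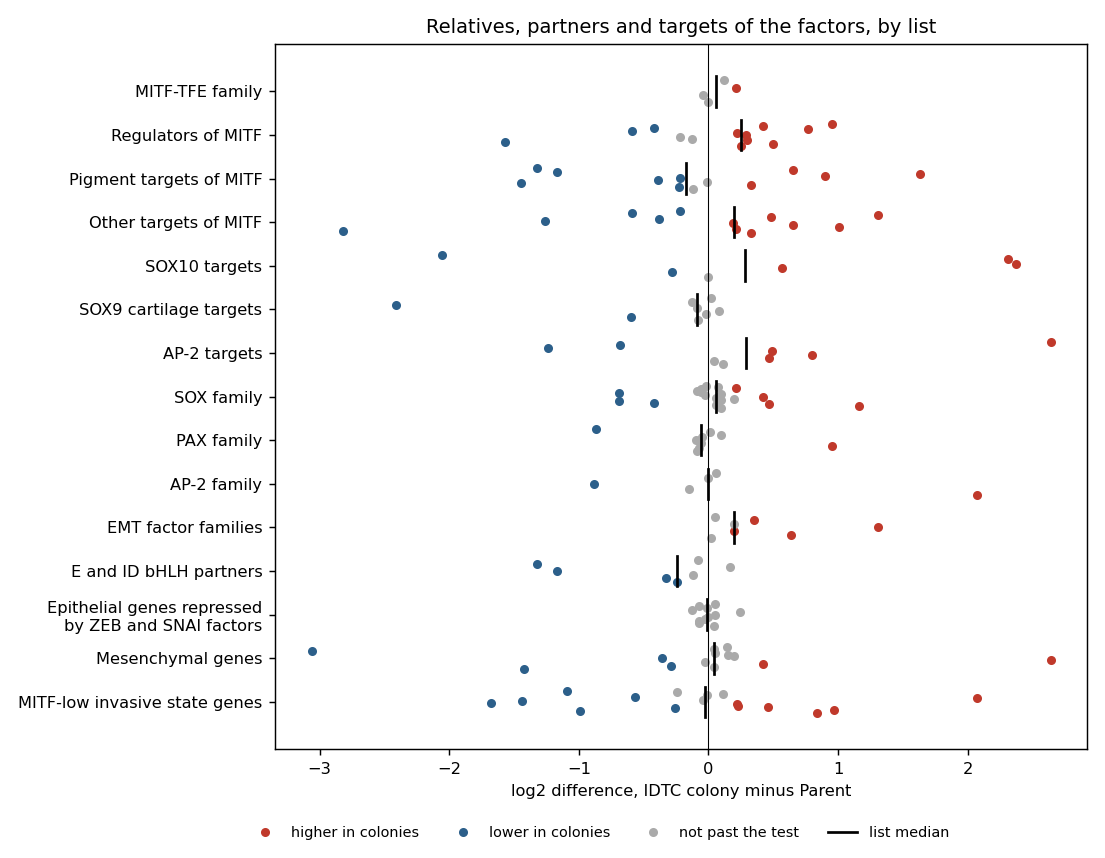
Log2 difference, IDTC colony minus Parent, of every measured gene in 15 lists of relatives, regulators, partners and targets of the factors; points are genes coloured by the test and black lines are list medians, which lie between -0.24 and 0.29. The epithelial list sits close to 0, with 9 of its 11 genes at the low end of the values. MITF and SOX10 targets spread to both sides.

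Targets of SOX10 showed wide differences in both directions: besides MITF, 3 of 5 measured rose and 2 fell. The endothelin receptor gene EDNRB rose by 2.37 ± 0.07 (adjusted p = 3.0e-07), and the myelin gene MBP was at 10.75 ± 0.00 in colonies and 8.44 ± 0.10 in parent cells (2.31 ± 0.06). S100B, a glial and melanocytic calcium-binding protein gene, rose by 0.57. GJB1, a connexin gene that SOX10 activates in Schwann cells, fell by 2.06 on the log2 scale and the neuregulin receptor gene ERBB3 by 0.28. Of the cartilage targets of SOX9, 0 of 8 were higher (also 0 at an unadjusted p under 0.05) and 2 were lower. Those 2 were HAPLN1 (-2.41 ± 0.05), a hyaluronan link protein gene, and the collagen gene COL9A1 (-0.60 ± 0.09).

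For AP-2, 4 of 8 listed targets rose and 2 fell (median 0.29). MMP2, a gelatinase gene, was at 10.68 ± 0.01 in colonies and 8.04 ± 0.04 in parent cells (2.64 ± 0.04, adjusted p = 6.5e-08). MCAM (0.47) and the thrombin receptor gene F2R (0.80), described in melanoma as repressed by TFAP2A, rose, as did ERBB2 (0.49). CDKN1A (-1.24) and VEGFA (-0.68) fell. KIT (0.11) and CDH1 (0.04), described as activated by TFAP2A, did not pass. Both were dim: KIT was at 4.29 in colonies and 4.18 in parent cells, and CDH1 at 4.83 and 4.79. The means of 341 olfactory receptor genes, taken to describe the low end of the values, had a 95th percentile of 5.99.

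Epithelial genes that ZEB and SNAI factors repress gave no call. Of 11 measured, 0 rose and 0 fell by limma (0 and 1 at an unadjusted p under 0.05). However, 9 of the 11 had means at or below the same 5.99 of the olfactory receptor genes, so room for a fall was small. Whether the risen factors repress these genes was not tested. E-cadherin (CDH1) was at 4.83 ± 0.03 in colonies and 4.79 ± 0.06 in parent cells. Of 13 measured mesenchymal genes 2 rose and 4 fell (median 0.04). FN1 (0.42), the gene of fibronectin, rose with MMP2. The mesenchymal homeobox gene PRRX1 fell to 6.31 ± 0.05 in colonies, against 9.37 ± 0.05 in parent cells, N-cadherin (CDH2) fell by 1.42 and ITGA5 by 0.36 on the log2 scale. In the list of genes of the MITF-low invasive state 6 of 16 rose and 6 fell (median -0.03). Of the 16, 5 had means at or below 5.99, among them CCN1 (0.23, higher) and WNT5A (-0.26, lower). JUN (2.07 ± 0.05), NGFR (0.97 ± 0.07) and AXL (0.84 ± 0.10) rose, and TNC (-1.68), INHBA (-1.44) and TNFRSF12A (-1.09) fell.

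The genes whose profile over the 6 arrays, each centred on its own mean, lay closest to that of TFAP2A were JUN (Euclidean distance 0.11 on the log2 scale), PYROXD2 (0.13) and ACSF2 (0.14). Closest to SNAI2 were FMO4 (0.07), the laminin gene LAMB2 (0.08) and DDIT3 (0.08), and closest to PAX3 were CCDC88A (0.08), LYPD6 (0.08) and SYNE2 (0.08). JUN differed between the groups by 2.07 and LAMB2 by 1.32, close to the 2.07 of TFAP2A and the 1.31 of SNAI2. Such closeness follows from choosing genes by this distance and is no separate result.

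Array medians lay between 6.25 and 6.34, and arrays correlated at 0.997 to 0.998 across genes within groups and at 0.967 to 0.969 between groups. Melanocyte-lineage markers had a summed linear signal of 16700 to 16987 in colonies and 14972 to 15178 in parent cells over 6 measured genes. Of these, SOX10 (0.42), PMEL (0.33) and S100B (0.57) rose, MLANA (-1.45) fell, and MITF (0.00) and TYR (-0.12) did not pass. MITF and SOX10 are themselves among the 10 factors. None of 5 keratinocyte or 6 endothelial markers passed the test (also none at an unadjusted p under 0.05). Their sums were 307 to 316 in colonies and 297 to 354 in parent cells for keratinocyte markers, and 288 to 292 in colonies and 273 to 303 in parent cells for endothelial markers. Of 6 fibroblast markers PDGFRA (-0.57) and LUM (-0.34) fell (sums of 621 to 634 in colonies and 666 to 695 in parent cells), and of 5 leukocyte markers LYZ (-2.35) and CD68 (-1.27) fell, with leukocyte sums of 982 to 1025 in colonies and 2383 to 2514 in parent cells. CD68, at 11.05 in parent cells, was the brightest of the 5 and weighs most in the sum. The other leukocyte markers, PTPRC (0.04), CD3E (0.01) and CD14 (0.00), did not pass. These 3 had means at or below the 5.99 of the olfactory receptor genes, so room for a fall was small. The same low level held for 3 of the keratinocyte and 5 of the endothelial markers. The part of these markers in the differences of the factors was not tested.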

How the data were processed

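RNA of 3 IDTC colony and 3 parent samples was hybridised to whole-transcript arrays after biotin labelling, per the labels' protocols. The deposited table holds 1 log2 value per probe set and array, made with Affymetrix Expression Console per the submitters' processing notes. For its version, summarisation and normalization the sources used here give nothing. Arrays have no read depth, and their number limits the precision.

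Of 33297 probe sets, 19460 had 1 gene symbol in the platform annotation, 1754 several and 12083 none. By Entrez ID 19429 matched the RefSeq gene table (GRCh38.p14), which was used for names and gene order. Each of 18417 genes was represented by its brightest such probe set (mean of the 6 arrays). The groups were compared with limma 3.58.1 in R 4.3.3 (lmFit and eBayes, 2-sided, Benjamini-Hochberg over all genes, threshold 0.05), tested on simulated data. Differences (log2, colony minus parent) are given ± SE, and group means ± SD. Permutation tests used scipy 1.17.1 and figures matplotlib 3.10.9.

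The factors and the 15 lists were chosen with earlier results of these data known. The rule for named genes took the 10 factors, all family relatives, the 3 largest changes past the test per list and direction, the 10 chromosome neighbours where at least 5 moved alike, and the 3 nearest profiles of the 3 factors with the largest change. Other listed genes were named after their values were seen, as were the CREB-type and LEF-type spellings. The design text speaks of triplicates with separate RNA isolation but not of separate origins, so the p-values rest on a spread that may be technical. Scan dates and batches are unknown here, and any that coincide with the groups cannot be told apart from treatment. Same-numbered colony and parent samples did not deviate together (correlations of -0.09, -0.06 and -0.01), so the number was not used as a term.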

Additional observations from a re-analysis of the deposited data

How the results depend on the processing

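The alternatives were quantile normalization, equal array medians, dim genes removed, probe sets averaged per gene, a fit on every probe set, robust eBayes with a trend, the replicate number as a block, each array left out, the other probe set of ZEB2, and, for single factors, the neighbourhood median subtracted. The count of factors was 6 higher and 0 lower in the 13 alternatives run for it. Subtracting the neighbourhood median gave MITF a difference of 1.05 (adjusted p = 3.1e-06) by construction, since its neighbours' median of -1.05 was removed. That alternative covered genes above the median expression. Extended to all genes after seeing the data, it gave SOX9 -0.34 (adjusted p = 0.00511), turned from 0.06, and TFAP2B -0.18 (adjusted p = 0.126). These values also follow by construction, and the p-values leave out the spread of the neighbours. The dim second ZEB2 probe set gave 0.11 (adjusted p = 0.687), and the cause was not tested. The shift of ZEB1 minus ZEB2 was -0.35 with the mean of both ZEB2 probe sets, again by including the dim one. In the alternatives run, no other result of those listed changed its call. Leaving out 1 array moved TFAP2A between 2.05 and 2.09, SNAI2 between 1.28 and 1.32, PAX3 between 0.91 and 1.02, SOX10 between 0.38 and 0.47, ZEB2 between 0.62 and 0.65 and TWIST1 between 0.32 and 0.38. Among the factors that did not pass, SOX9 ranged from -0.01 (without Parent replicate 1) to 0.11, TFAP2B from -0.19 to -0.07 (without Parent replicate 2; -0.08 without IDTC colony replicate 3), MITF from -0.03 to 0.03 and ZEB1 from 0.00 to 0.04, and none passed. With the replicate number as a block 3633 genes were higher and 3931 lower, against 3849 and 4212 without it, TFAP2A was at 2.07 (adjusted p = 7.6e-06) and no factor changed its call. SOX9 and TFAP2B lay below the median expression and gave no value where only brighter genes were used. Signal over background was not measured, so no value shows that a gene was absent.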
